A study of Mus musculus with 2 samples.

Results

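The genes of glycolysis and of the transcriptional response to low oxygen were examined as a set of 35 members named for their place in these pathways. The rule itself uses no measured value, but the set was proposed with earlier results of these data known. All 35 were found among the 32285 features of both count matrices. The set holds glucose and lactate carriers (Slc2a1, Slc16a1, Slc16a3), the enzymes of glycolysis and their regulators (Hk1, Hk2, Hk3, Gpi1, Pfkl, Pfkp, Pfkfb3, Pfkfb4, Aldoa, Tpi1, Gapdh, Pgk1, Pgam1, Eno1, Pkm, Ldha, Ldhb, Pdk1), the hypoxia-inducible factor (HIF) subunits Hif1a and Epas1 with the hydroxylases Egln1 and Egln3, and genes commonly used as readouts of HIF activity (Vegfa, Bnip3, Bnip3l, Ndrg1, Adm, P4ha1, P4ha2, Ddit4, Mxi1, Ankrd37). Levels were read in 8 groups of cells, called gates here, each defined by the UMI counts of a few other genes.

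The cells came from liver tumours of Crtc2+/+ and Crtc2-/- mice. Mice of both genotypes had received an intraperitoneal injection of DEN (diethylnitrosamine, a liver carcinogen) at 25 mg/kg when 2 weeks old, and a NASH diet (one that produces fatty, inflamed liver) from week 8 to week 26. There was 1 single-cell library per genotype, so the carcinogen and the diet are common to the compared groups and the genotype is the labelled difference. The labels do not say how many animals and tumours were pooled or which part of Crtc2 was deleted. With 1 library per genotype no test of a genotype difference was possible, and a difference between the libraries cannot be told apart from one between animals, tumours or preparations. Intervals are exact 95% Poisson intervals for levels and exact conditional intervals for ratios, and they cover counting error only.

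Glycolysis splits glucose into pyruvate in the cytosol, and lactate dehydrogenase reduces pyruvate to lactate, which leaves the cell through monocarboxylate carriers. When oxygen is plentiful, prolyl hydroxylases mark HIF alpha subunits for destruction, so HIF is controlled mostly through the stability of its proteins. When oxygen is scarce, the stabilised subunits pair with Arnt and bind short DNA cores, ACGTG or GCGTG, near glucose carriers, glycolytic enzymes, Vegfa and the hydroxylase gene Egln3. Crtc2 is a coactivator of CREB, which binds the cAMP response element (CRE) TGACGTCA, and in hepatocytes it is known for its part in glucose production.

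The start-site windows of 4 members on which the results below turn are shown for orientation. Each is a RefSeq window of 300 bases (250 before and 50 from the annotated start, GRCm38.p6), written 5′ to 3′ on the gene's strand. Of these members only Ldha had more than 1 window, and its window with the most ACGTG and GCGTG cores is shown. Capitals mark every ACGTG or GCGTG core on either strand, and the full CRE where there is one. The windows are Ldha at chr7:46845554-46845853 on the plus strand, Bnip3 at chr7:138909457-138909756 on the minus strand, Hif1a at chr12:73907617-73907916 on the plus strand, and Egln3 at chr12:54203825-54204124 on the minus strand.
Ldha: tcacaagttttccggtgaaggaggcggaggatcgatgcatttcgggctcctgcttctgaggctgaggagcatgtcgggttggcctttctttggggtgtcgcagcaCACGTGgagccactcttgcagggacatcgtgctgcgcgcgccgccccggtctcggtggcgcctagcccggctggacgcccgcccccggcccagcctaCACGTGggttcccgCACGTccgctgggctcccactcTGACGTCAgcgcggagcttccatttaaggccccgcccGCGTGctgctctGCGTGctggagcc
Bnip3: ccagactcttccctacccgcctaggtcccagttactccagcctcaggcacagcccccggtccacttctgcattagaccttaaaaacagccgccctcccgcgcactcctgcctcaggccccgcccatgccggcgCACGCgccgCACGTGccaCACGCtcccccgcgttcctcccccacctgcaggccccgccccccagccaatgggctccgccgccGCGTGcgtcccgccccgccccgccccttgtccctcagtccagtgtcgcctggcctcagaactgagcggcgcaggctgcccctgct
Hif1a: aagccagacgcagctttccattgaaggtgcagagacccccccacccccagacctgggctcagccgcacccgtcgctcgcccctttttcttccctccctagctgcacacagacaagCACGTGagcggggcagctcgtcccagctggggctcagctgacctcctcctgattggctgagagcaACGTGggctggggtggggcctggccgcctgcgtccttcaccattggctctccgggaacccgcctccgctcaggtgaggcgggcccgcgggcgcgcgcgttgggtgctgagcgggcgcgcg
Egln3: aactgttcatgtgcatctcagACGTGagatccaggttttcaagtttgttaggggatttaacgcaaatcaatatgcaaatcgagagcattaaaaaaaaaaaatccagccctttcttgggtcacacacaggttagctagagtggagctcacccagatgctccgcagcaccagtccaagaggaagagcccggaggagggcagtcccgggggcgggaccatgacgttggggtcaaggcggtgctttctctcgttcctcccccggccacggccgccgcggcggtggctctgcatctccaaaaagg
Matches were counted on both strands, so that a palindromic CACGTG counts on each. The Ldha window shown held 5 ACGTG and 2 GCGTG matches, Bnip3 2 and 3, Hif1a 3 and 0, and Egln3 1 and 0. The other Ldha window, chr7:46846832-46847131, held 0 and 2, and no full CRE. Of the members, 32 had at least 1 window in the RefSeq table, 44 windows in all. At least 1 of the cores lay in 36 of the 44 (81.8%), against 43.8% of all 32851 windows of that length. ACGTG alone was in 26 member windows (59.1%, against 19.6% of all), and GCGTG in 24 (54.5%, against 32.4%). The full CRE was in 1 member window, the Ldha window shown, starting at its base 239, a share of 2.27% against 1.79% of all windows. Its first bases alone, TGACG, were in 11 member windows (25%, against 20.8%). These are letter matches in fixed windows, not measured binding.

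Barcodes numbered 9707 in the Crtc2+/+ library and 9242 in the Crtc2-/- library, at median depths of 7195 and 6688 UMIs. After filters and doublet removal 9349 and 8901 cells were kept, and the libraries shared 29 barcodes. Crtc2 itself was at 7.96 and 5.43 CPM (UMIs of a gene per 1000000 UMIs) over all kept cells, from 615 and 400 UMIs. A 3' tag can come from outside a deleted part, so these values do not check the labels. Levels are CPM of the summed UMIs of a gate, and each pair of values is given with Crtc2+/+ first. A member is called higher or lower when, after adding 10 CPM to both levels, the Crtc2-/- level differs from the other by at least 1.5-fold, with at least 20 UMIs over both libraries. Log2 ratios are on that scale. With 10 CPM added, genes of low level in both libraries cannot pass 1.5-fold. The shares given over all genes are therefore not matched to the members in level, nor alike between gates of unlike depth. Dividing by the UMI total makes a gene's level depend on the other genes of the gate. Highly expressed glycolytic genes such as Gapdh, Pgk1, Eno1, Tpi1, Pgam1, Aldoa and Ldha have near-identical processed copies elsewhere in the genome, and how reads were shared among copies was not tested.

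The gates differed in size between the libraries. Cells with C1q transcripts and Kupffer-cell genes (Cd5l, Vsig4, Clec4f), called Kupffer-type here, numbered 31 and 398, and C1q cells without them 4631 and 990. The monocyte gate (Ly6c2 and Ccr2) held 459 and 777 cells, the neutrophil gate (S100a8 and S100a9) 71 and 299, CD8 T cells with a Pdcd1 UMI 210 and 694, and those without 618 and 733. The endothelial gate (Ptprb and Stab2) held 209 and 515 cells and the hepatocyte gate (Alb, Apoa1 and Ttr) 239 and 206. Cells in no gate numbered 2457 and 3909, and 424 and 380 that met more than 1 gate were left out. The Crtc2+/+ Kupffer-type gate, at 31 cells, is the thinnest group.

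Across cell types, members were highest in different gates. For 22 of the 35 the gate with the highest level was the same in both libraries: the neutrophil gate for 11, the endothelial and hepatocyte gates for 5 each, and the CD8 T gate without Pdcd1 for Pdk1, which encodes a mitochondrial kinase that inhibits pyruvate dehydrogenase. For 9 of these members the interval of the highest gate also stood clear of the next in both libraries.

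Slc16a3, the lactate exporter MCT4, was at 548 CPM (451 to 660) and 385 (349 to 424) in the neutrophil gate, and at 23.0 and 24.7 in the monocyte gate, which was next. Slc16a1, the carrier MCT1, was at 0 and 3.65 CPM in neutrophils, from 0 and 4 UMIs. It was highest in the hepatocyte gate, at 50.2 and 22.3 CPM, though in Crtc2-/- its interval overlapped that of the endothelial gate, at 21.8. Other members were also highest in neutrophils, with intervals clear of the next gate in both libraries. Slc2a1, the glucose carrier GLUT1, was at 138 and 124 CPM there, Pfkfb4, a maker of the phosphofructokinase activator, at 148 and 137, Aldoa (aldolase) at 311 and 371, and Pkm (pyruvate kinase) at 474 and 589.7.

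The HIF-2 subunit Epas1 was highest in the endothelial gate. It was at 517 CPM (485 to 552) and 577 (557 to 597) there, at 53.7 and 75.4 in the hepatocyte gate, and at 18.0 or less elsewhere. Adm, which encodes the vessel-acting peptide adrenomedullin, was at 47.1 and 56.1 CPM in endothelial cells and at 6.40 or less in every other gate. Ndrg1, a stress-response gene induced by HIF, was at 164 and 153 CPM in endothelial cells. Hif1a was more even, between 32.9 and 188 CPM over all gates and libraries, and was highest in neutrophils (188 and 186). In both libraries the Hif1a interval there overlapped that of the next gate. Tpi1, the triose phosphate isomerase, was highest in hepatocytes at 263 and 303 CPM.

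**Figure D1:**
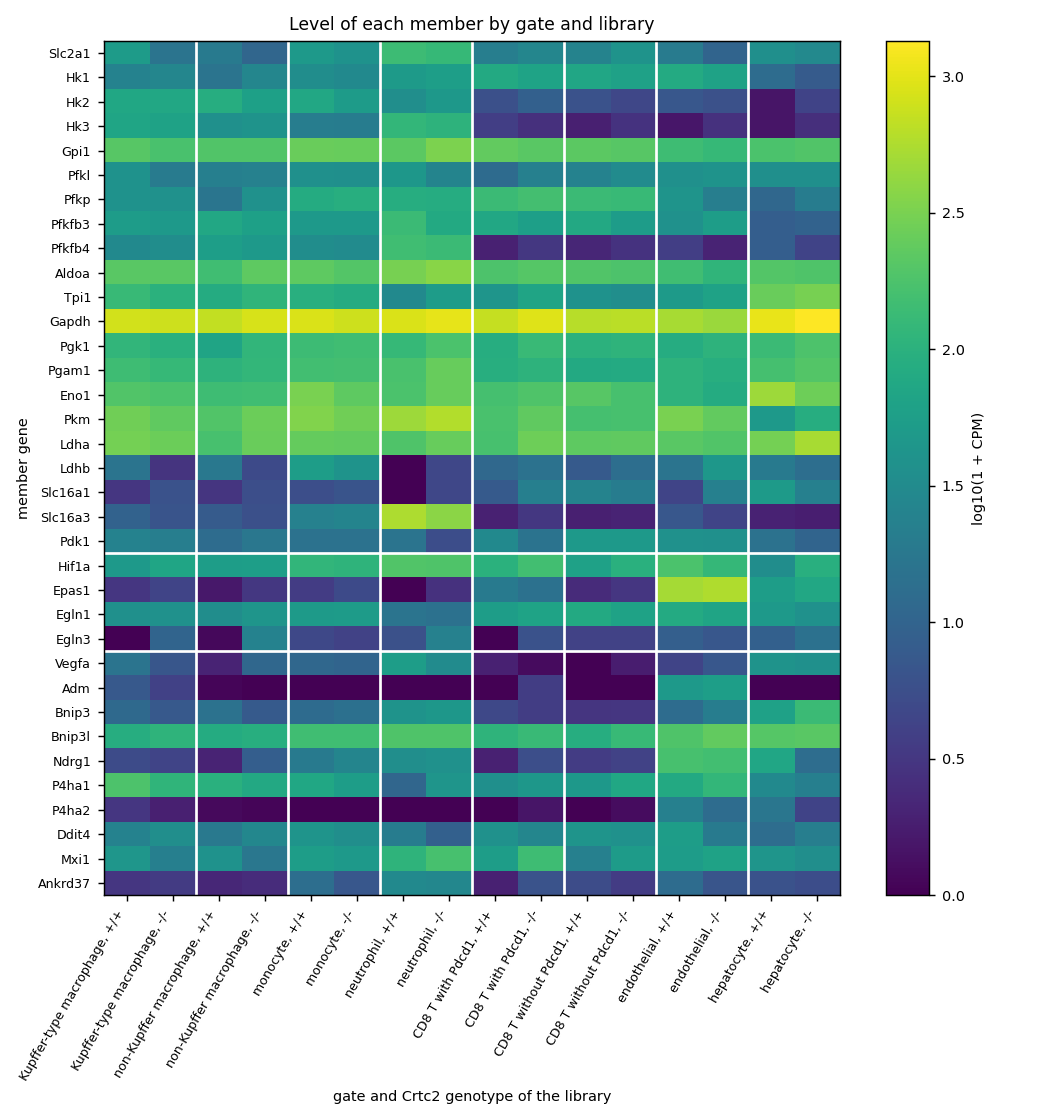
Level of each of the 35 members (rows) in the 8 gates of each library (columns), as log10 of 1 plus CPM, with horizontal lines dividing glycolysis, HIF subunits and hydroxylases, and HIF readouts. Slc16a3 stands out in the neutrophil columns (548 and 385 CPM) and Epas1 in the endothelial columns (517 and 577 CPM), in both libraries.

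The size of the libraries' difference in these genes varied by cell type, as the plot of log2 ratios by gate shows. Member medians lay between -0.15 and 0.28, and the largest was in CD8 T cells with Pdcd1. Between 27 and 33 members reached 20 UMIs in a gate. P4ha2 did not in 6 gates and Adm in 6, and 8 members did not in the neutrophil gate, among them Ldhb, Slc16a1, Pdk1 and Epas1.

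**Figure D2:**
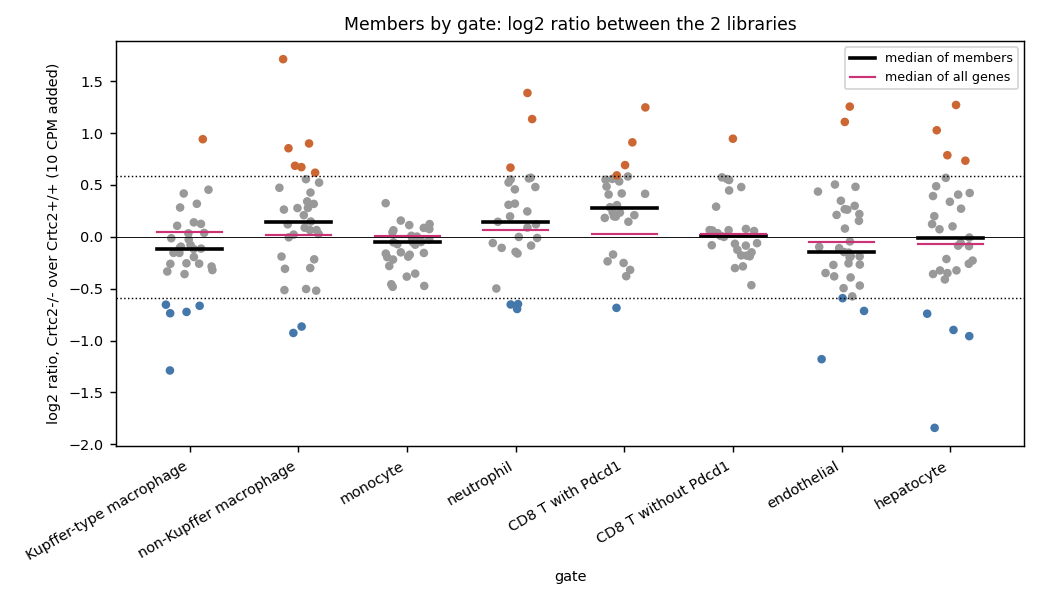
Log2 ratio of Crtc2-/- over Crtc2+/+ (10 CPM added) for members with at least 20 UMIs in each gate. Each point is a member, orange where called higher, blue where called lower and grey otherwise, with dotted lines at 1.5-fold, a black bar at the members' median and a pink bar at the median of all genes. The highest point is Egln3 in non-Kupffer macrophages (1.71) and the lowest Ndrg1 in the hepatocyte gate (-1.84).

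In non-Kupffer macrophages, 6 of the 33 members counted were higher in the Crtc2-/- library and 2 were lower. Of all 13836 genes counted, 6.05% were higher and 5.12% lower, and the members' median log2 ratio was 0.15 against 0.01 for all genes. For genes at 50 CPM or more in either library the median was 0.07. The members called higher were enzymes of glycolysis (Pfkp, Pgk1, Ldha) and HIF readouts (Egln3, Vegfa, Ndrg1).

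Egln3, which encodes the prolyl hydroxylase PHD3 and lies at chr12:54178981-54203860 on the minus strand (ENSMUSG00000035105), differed most. It had 7 UMIs in the Crtc2+/+ library, 0.154 CPM (0.0617 to 0.316), and 252 in the Crtc2-/- library, 23.3 CPM (20.5 to 26.4), a ratio of 152 (72.5 to 381). These UMIs were spread over 171 of 990 Crtc2-/- cells, with at most 6 in a cell, and over 7 of 4631 Crtc2+/+ cells. Vegfa, the vascular growth factor, was at 1.05 and 9.98 CPM, a ratio of 9.48 (6.69 to 13.6). Its Crtc2-/- UMIs lay in few cells: 40 of 990 cells held all 108, and 1 cell held 19. Ndrg1 was at 1.03 and 7.58 CPM, a ratio of 7.35 (5.07 to 10.8).

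The 3 enzymes had smaller ratios. Pfkp, the platelet-type phosphofructokinase that catalyses the committed step, was at 15.5 and 37.6 CPM (log2 0.90). Pgk1, which yields ATP, was at 66.3 and 113 CPM (0.69), and Ldha, which makes lactate, at 165 and 259 CPM (0.62). The 2 members called lower were Ldhb, the lactate dehydrogenase subunit favouring pyruvate, at 16.7 and 4.07 CPM (-0.93), and Mxi1, a MYC antagonist and HIF target, at 38.5 and 16.6 CPM (-0.86).

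Myeloid cells with Sox5 and Fcrl5 transcripts were unevenly present in this gate. Cells with at least 2 UMIs of the pair numbered 249 of 4631 and 629 of 990, and the summed level of the list Sox5, Fcrl5 and Fcgr4 was 388 and 3696 CPM, with none of the 3 at 0. Other class markers also differed in this gate. Of the Kupffer-cell list, 2 of 4 counted were higher, Nr1h3 (13.2 and 321 CPM) and Slc40a1 (14.98 and 105), while Timd4, Marco, Cd163, Folr2 and Fcna were at 3.604 or less in either library. Pecam1 was at 15.99 and 282 CPM, the endothelial marker among 6 that was called, and the macrophage list summed to 24509 and 9081 CPM, with Apoe at 22464 and 7283. Their part in the results was not tested, but the gate was divided by Sox5 and Fcrl5. Among cells with at least 2 such UMIs, Egln3 was at 0.365 and 38.1 CPM, from 1 and 246 UMIs. In the remaining cells it was at 0.140 and 1.38 CPM, from 6 UMIs in each library. Vegfa likewise was at 1.09 and 15.2 CPM in Sox5 and Fcrl5 cells and at 1.05 and 2.30 in the rest. Of the Crtc2-/- UMIs, 246 of 252 for Egln3 and 98 of 108 for Vegfa lay in Sox5 and Fcrl5 cells. Crtc2+/+ cells that met the same count held 1 and 3. The count can be met by 1 of the 2 genes alone, and whether the divided cells are of like class in both libraries was not tested.

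The Egln3 difference was also present at equal depth. With each Sox5 and Fcrl5 cell thinned to 3000 UMIs, Egln3 was found in 0 of 245 Crtc2+/+ cells, whose exact binomial interval reaches 1.49%, and in 73 of 628 Crtc2-/- cells, 11.6% (9.22 to 14.4). For depth, 4 and 1 cells were too shallow to thin, the unthinned shares were 0.402% and 26.6%, and the median depths were 9510 and 9394 UMIs. In CD8 T cells without Pdcd1, taken as background, the thinned share was 0.887% and 1.46% at median depths of 5092 and 4440 UMIs. For Vegfa the thinned share was 3.03% (1.83 to 4.68) in Crtc2-/- Sox5 and Fcrl5 cells, 0 of 245 in Crtc2+/+, and 0% and 0.486% in the CD8 T cells. Unthinned, Vegfa was found in 1.205% of Crtc2+/+ and 5.41% of Crtc2-/- Sox5 and Fcrl5 cells.

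The enzymes divided differently. Ldha was at 182 and 295 CPM in Sox5 and Fcrl5 cells and at 164 and 204 in the rest, and Gapdh at 751 and 1000 CPM against 701 in the rest of either library. Pfkp, by contrast, kept its ratio in both divisions, at 16.05 and 37.7 CPM in Sox5 and Fcrl5 cells and 15.5 and 37.4 in the rest. Mxi1 also kept its direction, at 32.8 and 12.7 CPM and at 38.9 and 22.5. Without the Sox5 and Fcrl5 cells the log2 ratios of Pgk1 (0.51), Ldha (0.30) and Vegfa (0.15) were under 1.5-fold. Those of Ndrg1 and Ldhb were also under it, and the Ndrg1 call was lost with stricter gates as well.

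**Figure D3:**
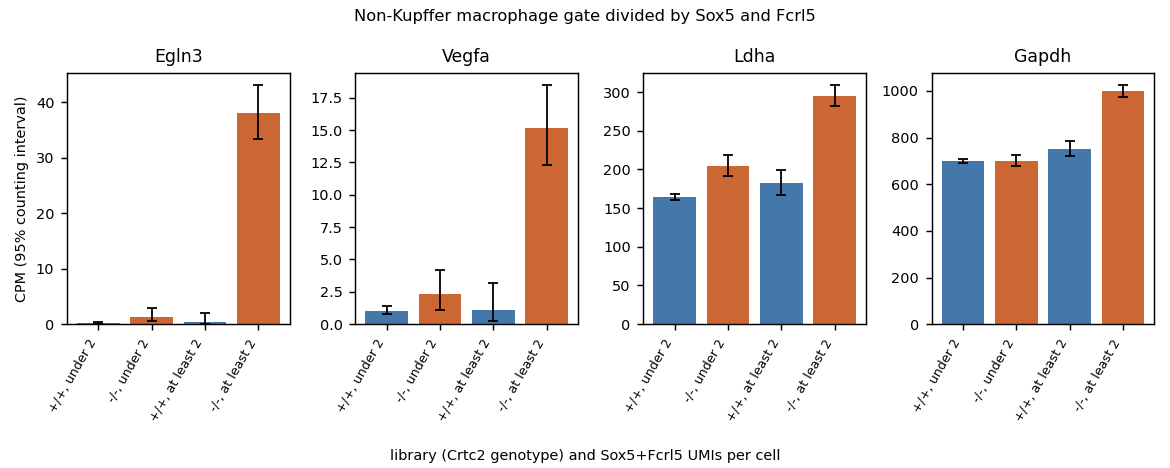
Level in CPM (bars, with 95% counting intervals) of Egln3, Vegfa, Ldha and Gapdh in the non-Kupffer macrophage gate, by library and by the Sox5 plus Fcrl5 UMIs of a cell. The Crtc2-/- bar for cells with at least 2 such UMIs is the highest in every panel, at 38.1 CPM for Egln3 and 295 for Ldha.

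In Kupffer-type cells 1 of 32 members, Egln3, was called higher and 5 were lower, where 8.69% of 10466 genes were higher and 5.83% lower. The members' median was -0.12, against 0.04 for all genes. Slc2a1 was at 51.2 CPM (32.8 to 76.1) and 15.05 (12.02 to 18.6), Pfkl, the liver-type phosphofructokinase, at 38.4 and 19.3, and Mxi1 at 42.6 and 21.6. Single cells among the 31 of Crtc2+/+ held much of these levels: 9 of 24 UMIs for Slc2a1, 7 of 18 for Pfkl and 6 of 20 for Mxi1. P4ha1, a collagen prolyl hydroxylase subunit, was at 181 and 111 CPM, and Vegfa at 14.9 and 5.84. The Vegfa ratio, 0.391 (0.170 to 1.05), rested on 7 Crtc2+/+ UMIs, of which 5 came from 1 cell, and its interval includes 1. The Mxi1 call was lost with stricter gates and without Sox5 and Fcrl5 cells, P4ha1 without Sox5 and Fcrl5 cells, Pfkl in means over cells, and Vegfa in means over cells and with cells of more than 1 gate kept. Slc2a1 passed under every alternative run. Egln3 was not detected among 469005 Crtc2+/+ UMIs and had 52 UMIs, 9.20 CPM, in Crtc2-/-. Against a floor of 3 counts in the Crtc2+/+ library its level without the added 10 CPM is at least 1.44-fold higher, and the exact interval of that ratio starts at 1.13. The call rests on the log2 ratio after adding 10 CPM, 0.94, and was lost with stricter gates. Of the 52 UMIs, 50 lay in the 146 cells with Sox5 and Fcrl5, a class that no Crtc2+/+ cell of this gate fell into. Marker levels differed beside these values: Marco was at 0 and 46.2 CPM and Timd4 at 21.3 and 15.8. Detected Kupffer-cell markers numbered 6 and 7 of 7. Of these 7, 4 were called higher and 0 lower, and the list summed to 1386 and 1918 CPM. The macrophage list summed to 25190 and 17454 CPM, with 1 of 6 lower and 0 higher. Cell cycle genes summed to 173 and 319 CPM, with 6 of 10 higher and 0 lower. Dissociation and heat shock genes summed to 4774 and 3315 CPM, with 6 of 13 called lower. Their part in the result was not tested.

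Within a library, Kupffer-type cells could be set against the other C1q cells of the same mice. In Crtc2+/+, 9 of 32 members were higher in Kupffer-type cells and 1 was lower (8.43% and 10.6% of 13318 genes), with a median of 0.33 against -0.07 for all genes. Members called higher included Ldha (165 CPM in non-Kupffer and 298.5 in Kupffer-type cells), P4ha1 (96.1 and 181) and Slc2a1 (17.9 and 51.2). In Crtc2-/-, 0 of 33 were higher and 1 was lower (4.03% and 3.14% of 12040 genes), and the median was -0.00 against -0.03. The member called lower there was Egln3, at 23.3 CPM in non-Kupffer and 9.20 in Kupffer-type cells. Sox5 and Fcrl5 cells, which held 246 and 50 of its UMIs, were 629 of 990 non-Kupffer and 146 of 398 Kupffer-type cells there, and within them Egln3 was at 38.1 and 27.5 CPM. No member passed the fold in the same direction in both libraries. Of the 32 members counted in both, 14 were above 0 in both and 4 below. Whether the libraries differ in this contrast was not tested.

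The monocyte gate gave no called member: 0 of 33 were higher and 0 lower, where 2.18% and 2.55% of 11733 genes were. The median was -0.05 against 0.01 for all genes, and member ratios ran from -0.48 to 0.32. Ldha was at 247 and 235 CPM, Hif1a at 114 and 109, and Pkm at 345 and 282. Plasmacytoid dendritic markers, all 5 detected, summed to 1158 and 2205 CPM in this gate, led by Tcf4 (633 and 1315), and T cell markers to 377 and 165. Macrophage markers summed to 4706 and 2399 CPM, with 3 of 6 called lower and 0 higher. Conventional dendritic markers summed to 173 and 476 CPM, with 5 of 5 higher. B cell markers summed to 14.3 and 82.2 CPM, with 4 of 5 higher and 0 lower. The part of these markers in the result was not tested.

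In the neutrophil gate 3 of 27 members were higher and 3 lower, against 21.6% and 10.5% of 5110 genes, so the share of members called higher was under the background. The median was 0.15 against 0.06. Egln3 had 1 and 25 UMIs, 4.94 and 22.8 CPM, a ratio of 4.62 (0.757 to 190). P4ha1 had 2 and 46 UMIs, 9.88 and 42.0 CPM, a ratio of 4.25 (1.11 to 36.2). Tpi1 was at 29.6 and 52.9 CPM, a ratio of 1.79 (0.773 to 5.07). Lower were Pfkfb3, another maker of the phosphofructokinase activator, at 133 and 78.5 CPM, Pfkl at 44.4 and 24.6, and Vegfa at 54.3 and 31.0. The intervals of the Egln3, Tpi1, Pfkl and Vegfa ratios include 1, since the Crtc2+/+ gate held 202519 UMIs in all. Cell cycle genes, 4 and 10 of 10 detected, summed to 34.6 and 280 CPM there, with Mki67 at 0 and 42.0 CPM, and the monocyte and immature-neutrophil transcript Chil3 was at 119 and 1878 CPM. All 6 neutrophil markers were detected in both. The monocyte list, which includes Chil3, summed to 2711 and 7202 CPM, with 3 of 4 counted higher and 0 lower. B cell markers summed to 0 and 98.6 CPM. Dissociation and heat shock genes summed to 13663 and 8306 CPM, with 4 of 12 lower and 1 higher. The part of these lists in the results was not tested. Cells that had a Chil3 UMI were then left out, a division chosen after seeing the data. In the rest Mki67 was at 0 and 2.47 CPM, Egln3 at 5.54 and 28.4 and P4ha1 at 5.54 and 50.6. The Tpi1 and Vegfa calls were lost there, and also without cycling cells and in means over cells. Vegfa was also lost with stricter gates and with only cells of at least 2000 UMIs. The Pfkl call was lost with stricter gates and with cells of more than 1 gate kept.

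CD8 T cells with Pdcd1, the gene of the PD-1 receptor of activated and exhausted T cells, had the highest member median, 0.28 against 0.03 for all genes. With Egln3 at a floor of 3 counts, the median was 0.26. Of 28 members 4 were higher and 1 lower, where 4.78% and 4.05% of 10124 genes were. Mxi1 (chr19:53310518-53375810, plus strand) was at 55.0 CPM (41.8 to 71.1) and 144 (133 to 157). Ldha was at 164 CPM (141 to 191) and 271 (256 to 288), a ratio of 1.65 (1.41 to 1.95). The Ldha call was lost in means over cells and without cycling cells. Cell cycle genes summed to 542 and 681 CPM in this gate, with 0 of 10 called. Slc16a1 was at 6.64 and 21.3 CPM, from 7 and 88 UMIs. Egln3 had 0 and 21 UMIs, at least 1.79-fold higher against the floor, with an exact interval of the ratio that starts at 1.33. Its log2 ratio of 0.59 lay just past the fold, and the call was lost with ratios shifted to a median gene of 0. Pdk1 was lower, at 29.4 and 14.5 CPM. Markers of other cell types differed beside these values: the macrophage list summed to 327 and 119 CPM, led by Apoe (289 and 96.3), the monocyte list to 348 and 140, the conventional dendritic list to 61.7 and 16.7 and the fibroblast list to 1.90 and 52.3. T cell markers, 6 of 6 detected, summed to 3591 and 4645 CPM. The part of these markers in the result was not tested.

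The CD8 T gate without Pdcd1 had 1 of 27 members higher and 0 lower (2.88% and 2.10% of 10480 genes), with a median of 0.01 against 0.03. The called member was again Mxi1, at 21.9 CPM (17.3 to 27.4) and 51.5 (44.5 to 59.2). Ldha there was at 224 and 234 CPM and Slc16a1 at 23.9 and 19.8. At an equal depth of 3000 UMIs, 13.4% (8.78 to 19.3) and 24.8% (21.4 to 28.4) of cells with Pdcd1 held Mxi1. Without Pdcd1 the shares were 6.38% (4.51 to 8.73) and 11.99% (9.54 to 14.8). Unthinned, the 4 shares were 16.7%, 34.6%, 8.90% and 15.7%, and 31, 80, 54 and 116 cells were too shallow.

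Cells with and without Pdcd1 were also set against each other in each library. In Crtc2+/+, 3 of 25 members were higher with Pdcd1 and 2 were lower (5.10% and 2.96% of 9704 genes). In Crtc2-/-, 4 of 28 were higher and 2 lower (4.50% and 2.20% of 10833 genes). Hif1a, Epas1 and Mxi1 were called higher in both libraries. Other members were called in 1 library only. In Crtc2-/-, Tpi1 was higher, at 34.6 CPM without and 65.8 with Pdcd1, and P4ha1 lower, at 72.6 and 44.8. In Crtc2+/+, Pfkl was lower, at 23.6 and 11.4 CPM. The Tpi1, P4ha1 and Pfkl calls were each lost without cycling cells, and under other alternatives. The Hif1a ratios, 0.62 and 0.61, lay close to the fold and were under it in both libraries with stricter gates, with cells of more than 1 gate kept, or with ratios shifted to a median gene of 0. Mxi1 was at 21.9 CPM without and 55.0 with Pdcd1 in Crtc2+/+, and at 51.5 and 144 in Crtc2-/-. Hif1a (chr12:73901375-73947530, plus strand) was at 61.1 CPM (53.2 to 69.9) without and 99.6 (81.5 to 121) with Pdcd1 in Crtc2+/+, and at 95.8 (86.2 to 106) and 151 (140 to 164) in Crtc2-/-. At 3000 UMIs, Hif1a was seen in 17.2% (14.2 to 20.6) of cells without and 25.7% (19.5 to 32.8) with Pdcd1 in Crtc2+/+, intervals that overlap. In Crtc2-/- the shares were 23.0% (19.7 to 26.5) and 31.3% (27.6 to 35.1). The unthinned shares were 25.9% and 31.4%, and 32.7% and 43.5%.

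Epas1 was scarce in these cells. It was at 1.44 and 18.0 CPM in Crtc2+/+ and 2.11 and 13.8 in Crtc2-/-, but the 19 UMIs of Crtc2+/+ cells with Pdcd1 came from 5 cells, 10 of them from 1. In Crtc2-/-, 57 UMIs came from 30 of 694 cells. At 3000 UMIs its shares without and with Pdcd1 were 0.355% (0.0430 to 1.28) and 1.68% (0.347 to 4.82) in Crtc2+/+, and 0.486% (0.100 to 1.41) and 1.95% (1.01 to 3.39) in Crtc2-/-, with overlapping intervals in both. The Crtc2-/- call was lost with cells of more than 1 gate kept. Pdk1 was lower with Pdcd1 in Crtc2-/-, at 49.1 without and 14.5 with, and at 48.7 and 29.4 in Crtc2+/+, where it missed the fold. Slc16a1 was called lower in Crtc2+/+, at 23.9 and 6.64 CPM, and was at 19.8 and 21.3 in Crtc2-/-. Whether the contrast differed between libraries was not tested.

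**Figure D4:**
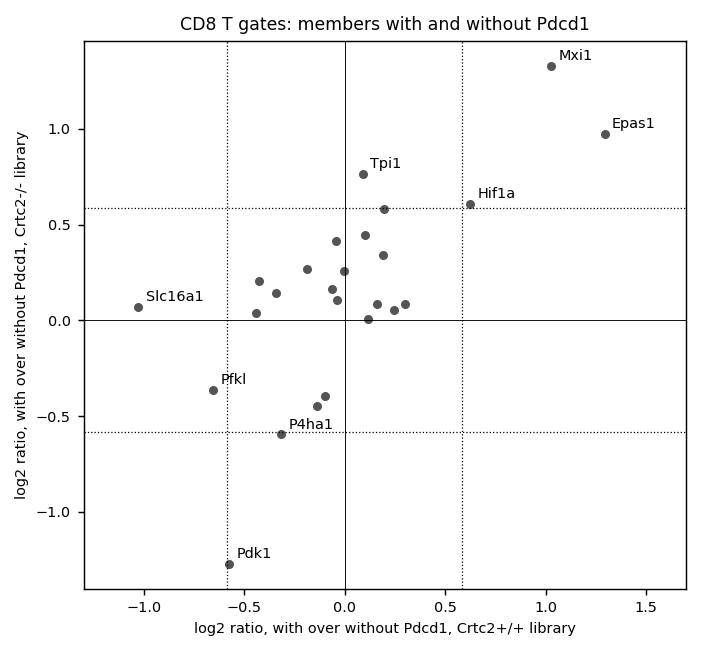
Log2 ratio of CD8 T cells with over those without Pdcd1 (10 CPM added) in the Crtc2+/+ library (x axis) and the Crtc2-/- library (y axis), for the 25 members with at least 20 UMIs in both. Dotted lines mark 1.5-fold. Mxi1, Epas1 and Hif1a lie past it in both libraries, at the upper right.

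In the endothelial gate 2 of 33 members were higher and 3 lower, against 5.09% and 6.53% of 11602 genes, with a median of -0.15 against -0.04. Slc16a1 was at 3.33 CPM (1.22 to 7.24) and 21.8 (18.2 to 26.0), with a UMI in 6 of 209 and 94 of 515 cells. Ldhb was at 14.97 and 43.8 CPM. Ddit4, an mTORC1 inhibitor induced by stress and low oxygen, was at 54.9 CPM (44.6 to 66.8) and 18.7 (15.3 to 22.6). Pfkp was at 40.5 and 20.8 CPM and Slc2a1 at 18.9 and 9.15. The Slc2a1 call was lost with cells of more than 1 gate kept, in means over cells, with shifted ratios and with stricter gates. Genes highest in this gate in both libraries were under the fold, among them Epas1 at 517 and 577, Adm at 47.1 and 56.1 and Ndrg1 at 164 and 153 CPM.

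Endothelial make-up differed between the libraries. Emcn was at 1748 and 542 CPM and Kdr at 880 and 1467. In both, 6 of 6 endothelial markers were detected, summing to 6737 and 5137. Dissociation and heat shock genes summed to 2420 and 3137 CPM, with 6 of 14 called higher and 1 lower. Macrophage markers summed to 1309 and 2499 CPM (2 of 6 higher, 1 lower), and Kupffer-cell markers to 50.5 and 146. Cell cycle genes summed to 401 and 282 CPM, with 4 of 10 lower and 0 higher. The part of these lists in the results was not tested. Cells with at least 3 UMIs of the sinusoidal genes Stab1, Stab2 and Clec4g, a division chosen after seeing the data, numbered 130 of 209 and 487 of 515. Among them Slc16a1 was at 4.38 and 21.5 CPM, Ldhb at 15.8 and 43.6 and Ddit4 at 44.7 and 17.3. All 3 ratios therefore had the same direction within these cells. Ddit4 in the remaining 79 and 28 cells was at 72.5 and 54.7 CPM.

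In the hepatocyte gate 4 of 31 members were higher and 4 lower, where 10.8% and 14% of 11487 genes were, so both shares were near the background. The median was -0.01 against -0.07. Higher were Hif1a, Bnip3, Ldha and Pkm, and lower were Ndrg1, P4ha2, Slc16a1 and Eno1. Of the HIF readouts among these calls, Bnip3 was higher and Ndrg1 and P4ha2 were lower. With shares near the background, no reading of the readouts as a group is drawn from this.

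Hif1a was at 32.9 CPM (25.4 to 42.0) and 93.7 (82.0 to 107), a ratio of 2.84 (2.15 to 3.80). Bnip3, a mitophagy receptor at chr7:138890836-138909519 on the minus strand, was at 61.3 CPM (50.9 to 73.3) and 135 (121 to 151). Ldha (chr7:46841475-46855627, plus strand) was at 297 CPM (273 to 322) and 519.8 (492 to 549). Pkm was at 48.7 and 87.6 CPM. Ndrg1 (chr15:66929318-66969640, minus strand) was at 69.4 CPM (58.3 to 82.1) and 12.2 (8.21 to 17.4), a ratio of 0.175 (0.114 to 0.262), with a UMI in 73 of 239 and 19 of 206 cells. P4ha2, a second collagen prolyl hydroxylase subunit, was at 15.7 and 3.24 CPM, from 31 and 8 UMIs. Slc16a1 was at 50.2 and 22.3 CPM. Eno1 (enolase) was at 463 CPM (433 to 494) and 273 (253 to 294). Gapdh, at 1066 and 1351 CPM, and Vegfa, at 39.0 and 36.1, were not called.

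**Figure D5:**
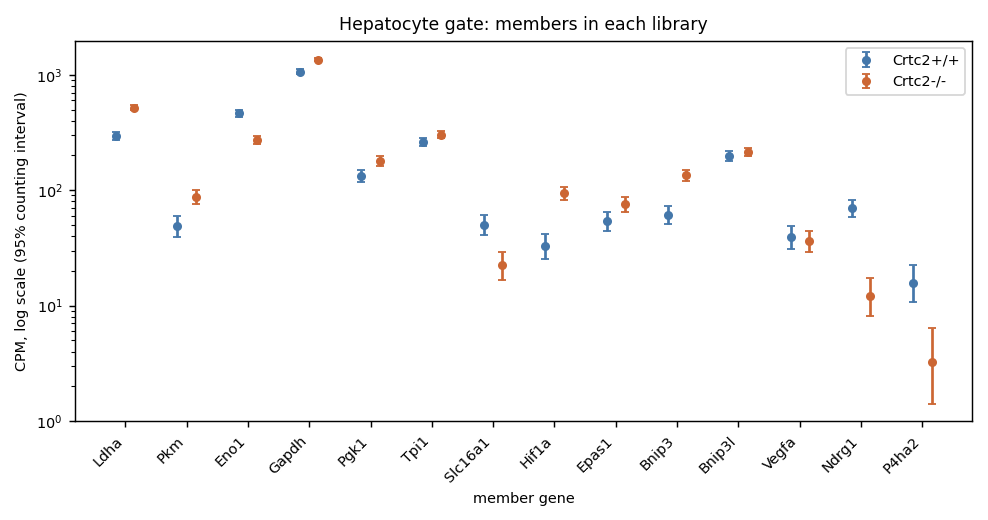
Level (CPM, log axis, 95% counting intervals) of 14 members in the hepatocyte gate of each library. Ndrg1 is lower in the Crtc2-/- library (12.2 against 69.4 CPM), while Hif1a (93.7 against 32.9) and Bnip3 (135 against 61.3) are higher.

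The hepatocyte gate was not 1 uniform class. Spp1 was at 35688 and 7613 CPM, Krt19 at 105 and 17.0, Epcam at 291 and 100.1, Afp at 11.2 and 295, and Serpina1a at 738 and 4564. The 7 hepatocyte markers, all detected, summed to 6947 and 15898 CPM and 5 of 5 cholangiocyte markers to 847 and 313. Monocyte markers summed to 521 and 1272 CPM, with 2 of 4 counted higher and 0 lower. The list Sox5, Fcrl5 and Fcgr4 summed to 332 and 532 CPM, with 2 of 3 higher and 0 lower. Macrophage markers summed to 16857 and 9203 CPM, with 1 of 5 lower and 0 higher. The part of these lists in the results was not tested. The median mitochondrial share was 5.20% and 1.66%, and dissociation and heat shock genes summed to 3111 and 5019 CPM. The gate was divided, after seeing the data, at 20 UMIs of Krt8 and Krt18 per 10000. The high side held 110 and 72 cells and the low side 129 and 134, and 62 and 47 cells lay between 15 and 25. Hif1a was at 37.7 and 138 CPM on the high side and at 26.8 and 57.3 on the low side. Ndrg1 was at 68.2 and 14.5 and at 71.1 and 10.3 CPM. Bnip3 was at 53.8 and 94.9 and at 71.1 and 168 CPM, and Ldha at 272 and 455 and at 329.8 and 573. These 4 kept their direction on both sides, while Pkm did not, at 43.1 and 153 CPM on the high side and 55.9 and 34.6 on the low side. Spp1 also differed within each side (40206 and 11321 CPM, and 29819 and 4596), so the division did not make the libraries alike.

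Beyond the members, 68 other genes of the same pathways were read from a fixed list. Shares over all genes, higher then lower, are repeated beside each count. In the hepatocyte gate 12 of 56 were higher and 5 lower (10.8% and 14%). Highest by ratio were Pdk4, a kinase that limits pyruvate oxidation (14.2 and 73.0 CPM), Plin2, a lipid droplet coat protein (219 and 729), and Plod2, a collagen lysyl hydroxylase (4.56 and 32.4). Lowest were the hepatocyte glucose carrier Slc2a2 (129 and 48.7), Stc2 (10.6 and 0.405) and Aldoc (42.6 and 20.7). In non-Kupffer macrophages 10 of 52 were higher and 3 lower (6.05% and 5.12%), led by Anxa2 (26.8 and 167 CPM), Hmox1, the haem-degrading oxygenase (89.7 and 345), and Eno3 (5.51 and 25.6). Zfp395 (61.4 and 16.9), the glucose carrier Slc2a3 (36.7 and 10.9) and Vhl (27.4 and 13.3) were lower. In Kupffer-type cells (8.69% and 5.83%) 6 of 47 were higher, among them Hmox1 (322 and 693) and Tfrc, the transferrin receptor (6.40 and 23.2), and 4 lower, among them Bhlhe40 (74.6 and 32.4) and Plin2 (531 and 316).

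In CD8 T cells with Pdcd1 4 of 41 were higher and 0 lower (4.78% and 4.05%), among them Rora (99.6 and 212 CPM), Tfrc (5.69 and 18.1) and Hmox1 (0.949 and 8.95). Without Pdcd1, 3 of 43 were higher and 0 lower (2.88% and 2.10%): Bhlhe40, a repressor induced by HIF (33.7 and 105 CPM), Rora (77.3 and 202) and Cited2 (50.7 and 89.2). In the monocyte gate 2 of 50 were higher, Tfrc (16.3 and 36.2) and Hmox1 (60.2 and 100.1), and 0 lower (2.18% and 2.55%). In the endothelial gate 4 of 49 were higher and 4 lower (5.09% and 6.53%), with Pgf, the placental growth factor, at 43.2 and 0.176 CPM and Pdk4 at 28.3 and 79.9. In neutrophils 8 of 31 were higher and 2 lower (21.6% and 10.5%), led by Pdk3 (0 and 21 UMIs, at least 1.29-fold higher against the floor) and the pentose phosphate enzymes G6pdx (14.8 and 54.8 CPM) and Tkt (128 and 317). With against without Pdcd1, 3 of 40 were higher and 1 lower in Crtc2+/+ (5.10% and 2.96%), and 2 of 44 higher and 0 lower in Crtc2-/- (4.50% and 2.20%). Bhlhe40 was higher with Pdcd1 in each, at 33.7 and 133 CPM in Crtc2+/+ and at 105 and 227 in Crtc2-/-.

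In the 2457 and 3909 cells that met no gate, 0 of 34 members counted were higher and 1, Epas1, was lower, where 1.34% and 2.75% of 15254 genes were. The members' median log2 ratio was 0.02, against -0.02 for all genes. Ldha was at 212 and 224 CPM in them, Gapdh at 632 and 645, Pkm at 196 and 201 and Mxi1 at 38.5 and 46.6. Epas1 was at 13.4 and 5.02 CPM there and Egln3 at 4.46 and 10.7. What cell types these cells hold was not examined.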

How the data were processed

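Single-cell RNA libraries of liver tumours, 1 per genotype, were read as the deposited raw UMI counts per gene and barcode. The file headers name Cell Ranger 7.1.0 as the program that wrote them. The genome build was mm10 and Seurat was also used, per the submitters' processing notes. No label says whether intronic reads were counted. Sample groups came from the genotype labels.

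Barcodes with at least 500 UMIs, 250 genes and at most 20% mitochondrial UMIs were kept (9612 and 9174). Scrublet in scanpy 1.11.5, at 0.8% per 1000 cells expected, called 263 (2.74%) and 273 (2.98%) as doublets, which were removed. Gates needed 20 UMIs of C1qa, C1qb and C1qc (with 3 or more of Cd5l, Vsig4 and Clec4f for Kupffer-type, fewer for non-Kupffer), 1 each of Ly6c2 and Ccr2, 20 of S100a8 and S100a9, 2 of Cd3d, Cd3e and Cd3g with 1 of Cd8a and Cd8b1, 3 of Ptprb and Stab2, or 20 of Alb, Apoa1 and Ttr. Cells meeting exactly 1 of 8 gates were summed, so a class here is a range of marker counts, not a clustered type. UMI totals per gate ran from 202519 to 45589473, which sets the precision of each level. CPM, log2 ratios with 10 CPM added, and exact intervals were computed with Python 3.11.15, numpy 2.4.6 and scipy 1.17.1, and the ratio and interval code was tested on simulated data. No p-value was computed. Aldoa was read from the identifier ENSMUSG00000030695. A second feature of that symbol (16 and 6 UMIs) was not used. Gene coordinates are GENCODE M21 (GRCm38).

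In each gate up to 6 called members per direction, and up to 3 called genes from the list of other pathway genes, were named. Members, lists and gates were chosen with earlier results of these data known. Alternatives numbered 12 planned and 4 added after seeing the data, and their effect is given in the closing section.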

Additional observations from a re-analysis of the deposited data

Results flagged for a closer look

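Some members were called higher in the Crtc2-/- library in 1 gate and lower in another. With 1 library per genotype, none of these differences between cell types was tested, and values are log2 ratios of Crtc2-/- over Crtc2+/+ with 10 CPM added. Mxi1 went opposite ways in lymphocytes and macrophages, at 1.25 in CD8 T cells with Pdcd1 and 0.95 in those without, and at -0.74 in Kupffer-type and -0.86 in non-Kupffer macrophages. The Kupffer-type value was under 1.5-fold with stricter gates and without Sox5 and Fcrl5 cells. Slc16a1 was at 0.91 in CD8 T cells with Pdcd1 and 1.26 in the endothelial gate, and at -0.90 in the hepatocyte gate. Ndrg1 was at 0.67 in non-Kupffer macrophages and -1.84 in the hepatocyte gate. Vegfa, given here as CPM with Crtc2+/+ first, was called higher in non-Kupffer macrophages (1.05 and 9.98). It was called lower in Kupffer-type macrophages (14.9 and 5.84) and in neutrophils (54.3 and 31.0), where the intervals of its ratios include 1. Each of these Vegfa calls was lost under some alternatives. The isoenzyme genes Pfkp and Ldhb crossed in the same pair of gates: Pfkp was at 0.90 in non-Kupffer macrophages and -0.71 in the endothelial gate, and Ldhb at -0.93 and 1.11. Without Sox5 and Fcrl5 cells, Ndrg1 and Ldhb in non-Kupffer macrophages were under 1.5-fold, and Ndrg1 there also with stricter gates. P4ha1 was at 1.39 in the neutrophil gate, from 2 Crtc2+/+ UMIs, and at -0.66 in Kupffer-type macrophages, where the Crtc2+/+ gate held 31 cells and the ratio was under 1.5-fold without Sox5 and Fcrl5 cells.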

How the results depend on the processing

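No paired analysis was possible because there was 1 library per genotype. Alternatives were keeping cells of more than 1 gate or called doublets, a mitochondrial limit of 10%, 1 CPM added, no minimum of UMIs, means over cells, ratios shifted to a median gene of 0, stricter gates, only cells with at least 2000 UMIs, no cycling cells, and no Sox5 and Fcrl5 or mixed-marker cells. Divisions by keratin, Stab genes and Chil3 were added after seeing the data. Under these, member medians ranged from -0.29 to -0.10 in Kupffer-type cells, 0.08 to 0.19 in non-Kupffer macrophages, -0.11 to 0.05 in monocytes, 0.12 to 0.31 in neutrophils, 0.20 to 0.37 and -0.03 to 0.04 in CD8 T cells with and without Pdcd1, -0.23 to -0.08 in the endothelial and -0.03 to 0.21 in the hepatocyte gate. Counts of members called higher ranged from 0 to 2, 1 to 10, 0 to 0, 2 to 7, 2 to 10, 1 to 5, 2 to 4 and 4 to 7 in that order, and of those called lower from 3 to 7, 2 to 4, 0 to 1, 1 to 5, 1 to 1, 0 to 0, 2 to 6 and 4 to 6. Within libraries, counts higher with Pdcd1 ranged from 2 to 3 in Crtc2+/+ and 2 to 7 in Crtc2-/-, and counts lower from 1 to 3 and 1 to 2. In Kupffer-type over other macrophages they ranged from 8 to 13 and 0 to 1 for higher, and 1 to 1 and 1 to 4 for lower.

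Called members that passed 1.5-fold under every alternative that gave a value numbered 1 of 6 in Kupffer-type cells, 3 of 8 in non-Kupffer macrophages, 3 of 6 in neutrophils, 3 of 5 in CD8 T cells with Pdcd1, 4 of 5 in the endothelial and 6 of 8 in the hepatocyte gate. Pkm in the hepatocyte gate reversed, at -0.57 in cells of low keratin. Ldha there was at 0.14 with stricter gates. Without Sox5 and Fcrl5 cells, Pgk1, Ldha, Ldhb, Vegfa and Ndrg1 in non-Kupffer macrophages were under 1.5-fold, and Egln3 had too few UMIs to count. Ldha there was also under it with stricter gates, shifted ratios or cells of more than 1 gate kept, and Ndrg1 with stricter gates. Ldha in CD8 T cells with Pdcd1 was under 1.5-fold in means over cells and without cycling cells. The causes were not tested. Depth limits the neutrophil and Kupffer-type gates most, whose Crtc2+/+ sums were 202519 and 469005 UMIs.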

Other observations

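Hmox1, the haem-degrading oxygenase, stood out among the other pathway genes for its direction across cell types, and was chosen for mention after its values were seen. It was at 322 and 693 CPM in Kupffer-type and 89.7 and 345 in non-Kupffer macrophages, 60.2 and 100.1 in the monocyte gate, 39.9 and 71.8 in the endothelial gate and 17.7 and 47.0 in the hepatocyte gate, with Crtc2+/+ given first. In these 5 gates, and in CD8 T cells with Pdcd1 (0.949 and 8.95 CPM, from 1 and 37 UMIs), it was called higher. In neutrophils (153 and 194 CPM) and CD8 T cells without Pdcd1 (2.88 and 7.92 CPM) it was not. The 8 ratios come from the same pair of libraries and are not independent.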
